A study of Mus musculus with 11 samples.

Results

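The imprinted transcripts described here are the non-coding hosts of small nucleolar RNAs (snoRNAs) and microRNAs in the *Dlk1*-*Meg3* and *Snrpn* domains, together with imprinted neighbours and further well-known imprinted genes. They are *Meg3*, *Rian*, *Mirg*, *Dlk1*, *Snhg14*, *Snrpn*, *H19*, *Igf2*, *Kcnq1ot1* and *Peg3*, chosen by symbol, and they make up 10 of the 53801 genes in the count tables. All 10 were matched to one gene identifier each, 9 passed the filter on low counts in every comparison, and *Igf2* did not pass in any.

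NPCs (neural progenitor cells) from the brains of E13.5 mouse embryos, of a strain that mixes C57BL/6 with 129SV, were cultured and their total RNA was sequenced after depletion of ribosomal RNA. All cells carried the *Smg6* Flox/Flox allele. Ctr cells (3 embryos) also carried RosaCreER tg/+, a recombinase expressed from a ubiquitous locus, and were not treated. *Smg6*-iKO cells (4 embryos) had the same genotype and were given 1 µM 4-OHT (4-hydroxytamoxifen), which activates the recombinase, for 3 days. These 3 days are what the labels give, while the study describes a longer time between the start of 4-OHT and RNA isolation. Ctr + 4-OHT cells (4 embryos) were RosaCreER +/+, so they held no recombinase, and were given 4-OHT too. Embryos, named as in the labels, were replicates. Embryos SMH_128, SMH_132 and SMH_133 each gave one Ctr and one *Smg6*-iKO library, and no Ctr + 4-OHT embryo gave a second library. The 4-OHT treatment is thus matched between *Smg6*-iKO and Ctr + 4-OHT, whereas genotype and animal are matched between *Smg6*-iKO and Ctr. In bulk RNA, fewer cells that express a gene and less RNA per cell cannot be told apart.

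SMG6 is the endonuclease of nonsense-mediated mRNA decay (NMD), which cuts translated RNAs that hold a premature or unusual stop codon. An imprinted gene is expressed from the copy of one parent only. In the *Dlk1*-*Meg3* domain, the maternal copy makes *Meg3*, *Rian* and *Mirg*, which follow each other on one strand and carry microRNAs and C/D box snoRNAs in their introns and exons, while the paternal copy makes *Dlk1*. In the *Snrpn* domain, the paternal copy makes *Snrpn* and, downstream, *Snhg14*, a very long nuclear RNA whose introns hold the *Snord116* and *Snord115* snoRNA clusters and which runs antisense to *Ube3a*. These domains are known for their role in brain development and in growth. *H19* and *Igf2* are oppositely imprinted neighbours, *Kcnq1ot1* is a long antisense RNA that silences its neighbourhood, and *Peg3* encodes a zinc finger protein of the paternal copy.

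The counts summed to between 26418249 and 33756875 per library. *Smg6* itself lay between 62.3 and 71.9 CPM (counts per 1000000 counts of a library, after TMM normalization) in *Smg6*-iKO, between 66.5 and 72.3 CPM in Ctr + 4-OHT and between 69.4 and 79.4 CPM in Ctr. These counts cover the whole gene, including what lies outside the deleted part, and their groups overlapped, so they do not check the deletion. The log2 fold change of *Smg6* was -0.059 against Ctr + 4-OHT (adjusted p = 0.703, edgeR) and -0.17 against Ctr (adjusted p = 0.148, edgeR), where the fit with the embryo as a block gave -0.15 (adjusted p = 0.043, edgeR). The summed level of 10 neural progenitor markers was between 5439 and 7065 CPM in all libraries, that of 7 neuron markers between 1644 and 2676 CPM and that of 8 mesenchyme markers between 287 and 1558 CPM. Of 4 astrocyte markers, 1 passed a test (*Gfap*, which rose against Ctr, adjusted p = 0.029 from edgeR). All 4 erythroid and all 4 microglial markers stayed at or below 1 CPM.

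The small RNAs that these hosts carry are shown first, as the products for which these transcripts serve as hosts. RefSeq (GRCm38.p6) places 106 mature microRNAs of 57 microRNA genes between the start of *Meg3* and the end of *Mirg* (chr12:109541001-109749460, plus strand). Their seeds, bases 2 to 8 of the mature RNA, take 97 different forms, of which 9 occur in more than 1 microRNA gene. The pairs below come from hairpins in the stretch between *Rian* and *Mirg* or inside *Mirg* and share a seed, which stands in capitals:
miR-379-5p: uGGUAGACuauggaacguagg
miR-1193-5p: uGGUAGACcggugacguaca
miR-379-3p: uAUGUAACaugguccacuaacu
miR-411-3p: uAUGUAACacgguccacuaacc
miR-376b-5p: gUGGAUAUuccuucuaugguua
miR-376c-5p: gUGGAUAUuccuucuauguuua
miR-494-5p: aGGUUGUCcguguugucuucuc
miR-410-5p: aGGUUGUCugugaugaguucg
miR-1197-5p: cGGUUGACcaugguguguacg
miR-758-5p: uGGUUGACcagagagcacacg
miR-453: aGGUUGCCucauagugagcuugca
miR-496a-5p: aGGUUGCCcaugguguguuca
*H19* holds 1 hairpin, whose products are shown because it lies wholly inside an exon of its host (chr7:142577064-142577147, minus strand):
miR-675-5p: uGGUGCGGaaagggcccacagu
miR-675-3p: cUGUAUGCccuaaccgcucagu

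Mature microRNAs are too short for these libraries, so none of these sequences was measured, and what the count tables hold is reads from the hosts. Of the 14 hairpins within *Mirg*, 9 share bases with its exons, and so does the hairpin of *Mir770* in *Meg3* (94 bases). Reads that overlap a hairpin and its host exon on the same strand were counted for neither gene. The lost stretch is small for *Meg3* (271 of 18089 exonic bases), for *Mirg* (367 of 7292 exonic bases) and for *Rian* (623 of 18234 exonic bases). For *Snrpn* it is 589 of 2159 exonic bases, shared with *Gm38393* and with *Snurf*, and for *Igf2* it is 3596 of 5723 exonic bases, shared with *Gm49394*. Levels of *Snrpn* and *Igf2* are therefore uncertain, and are lower per length than the reads alone would give.

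*Meg3*, the maternally expressed non-coding RNA at the head of the chromosome 12 domain, was the member with the clearest difference. *Meg3* (ENSMUSG00000021268) spans chr12:109541001-109571726 on the plus strand of GRCm38 in 8 exonic blocks. In *Smg6*-iKO it lay at 419, 369, 412 and 384 CPM in embryos SMH_127, SMH_128, SMH_132 and SMH_133. In Ctr + 4-OHT it lay at 336, 367, 271 and 300.8 CPM in embryos SMH_125, SMH_126, SMH_129 and SMH_131. In Ctr it lay at 315, 286 and 298 CPM in embryos SMH_128, SMH_132 and SMH_133. Every *Smg6*-iKO library was above every control library, although the gap between the lowest *Smg6*-iKO library (369 CPM) and the highest control library (367 CPM) was narrow. Among 18123 genes, 2.9% lay above both controls in this way.

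Against Ctr, *Meg3* rose by a log2 fold change of 0.40 (standard error 0.063, 1.32-fold, adjusted p = 0.0056, quasi-likelihood test of edgeR). This call held with each of the 7 libraries left out in turn, where the largest adjusted p was 0.037. The fit with the embryo as a block gave 0.38 (adjusted p = 0.00013, edgeR). Against Ctr + 4-OHT the log2 fold change was 0.32 (standard error 0.092, 1.25-fold) and did not pass the threshold (adjusted p = 0.12 from edgeR), with values between 0.038 (DESeq2) and 0.298 over the alternatives. For *Meg3* taken alone, the two-sided exact permutation test on log2 CPM gave p = 0.0286 in both comparisons, the smallest p that either design allows. Between the controls the log2 fold change was 0.091 with a standard error of 0.10 (adjusted p = 0.83, edgeR).

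The plot of levels by library shows all members on a scale that starts at 0.

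**Figure D1:**
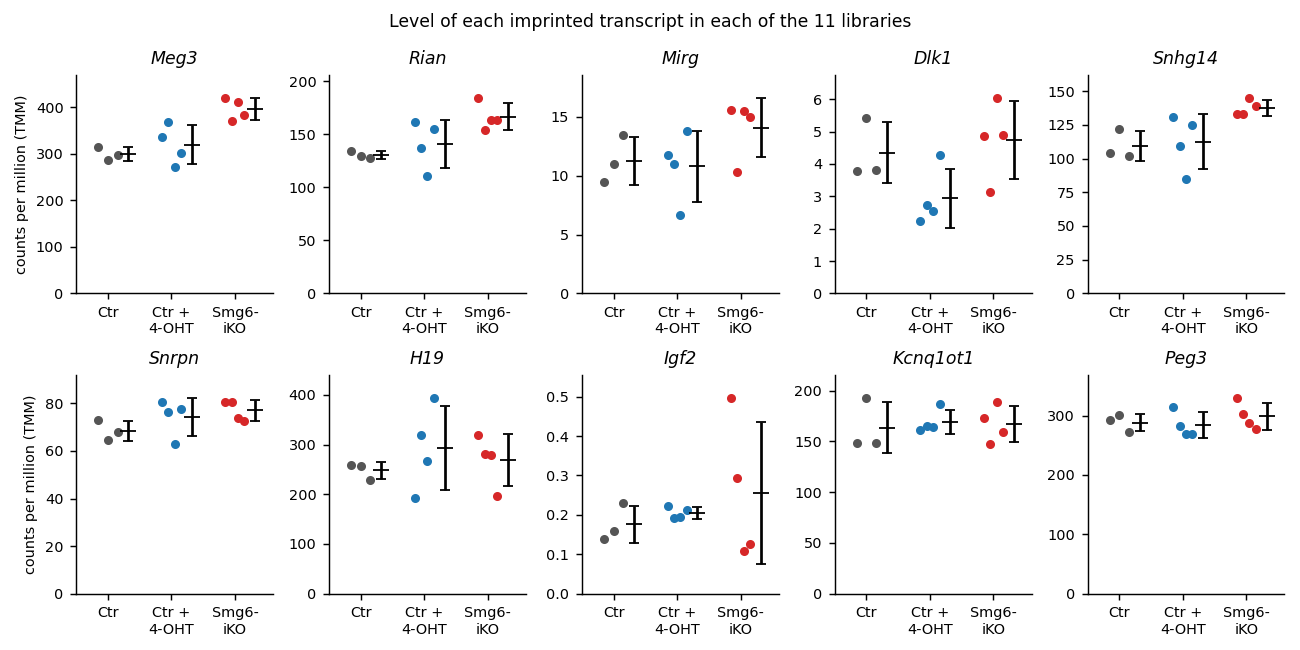
Level in CPM after TMM normalization (vertical axis, from 0 in each panel) of the 10 members in Ctr (grey, n = 3), Ctr + 4-OHT (blue, n = 4) and *Smg6*-iKO (red, n = 4). Each point is 1 library, and the black mark gives the mean and SD; only *Meg3* and *Snhg14* have every red point above every grey and blue point.

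The promoter of *Meg3* is shown because *Meg3* carried the difference that held under every alternative against Ctr. RefSeq (GRCm38.p6) gives 250 bases before to 50 bases after its first start as chr12:109540746-109541045, plus strand, with CpG in capitals:
Meg3 promoter: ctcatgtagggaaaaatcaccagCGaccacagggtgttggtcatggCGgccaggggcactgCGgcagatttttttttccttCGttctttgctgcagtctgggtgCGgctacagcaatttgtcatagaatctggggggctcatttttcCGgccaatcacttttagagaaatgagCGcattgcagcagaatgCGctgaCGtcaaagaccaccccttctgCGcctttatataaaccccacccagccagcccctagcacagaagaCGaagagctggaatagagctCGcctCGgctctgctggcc
It holds 13 CpG, and 62.1% of the 32851 RefSeq promoters of the same length hold fewer. It also holds the letters TATAAA, searched on both strands, which 13.6% of these promoters hold. The letters GCCATCTT, a form of the YY1 motif searched on both strands, are in 2.75% of all promoters and in 0 of the windows of the 9 members other than *H19*. The RefSeq window at the start of *Rian*, cut in the same way, holds 0 CpG. CpG methylation was not analysed here.

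*Rian*, the next transcript downstream, carries snoRNAs in its introns. *Rian* (ENSMUSG00000097451) spans chr12:109603940-109661716, and 31.6% of this span is exonic. It lay at 184, 154, 164 and 164 CPM in the 4 *Smg6*-iKO libraries, at 161, 137, 111 and 155 CPM in the 4 Ctr + 4-OHT libraries and at 134, 129.0 and 127.2 CPM in the 3 Ctr libraries, each in the order of embryos given for *Meg3*. *Smg6*-iKO lay wholly above Ctr, but overlapped Ctr + 4-OHT, whose libraries spread from 111 to 161 CPM. Against Ctr, *Rian* rose by a log2 fold change of 0.35 (standard error 0.065, 1.28-fold, adjusted p = 0.010 from edgeR). Without Ctr embryo SMH_132 the adjusted p was 0.054 (edgeR), and in one fit of all libraries it was 0.080 (edgeR). The fit with the embryo as a block gave a log2 fold change of 0.30 against Ctr (adjusted p = 0.00035, edgeR). Against Ctr + 4-OHT the log2 fold change of *Rian* was 0.25 with a standard error of 0.11 (adjusted p = 0.27, edgeR), with adjusted p-values between 0.213 and 0.505 over the alternatives.

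*Mirg*, the microRNA-rich transcript at the end of the maternal series (ENSMUSG00000097391, chr12:109729764-109749460), had between 206 and 534 counts per library. Its level was 15.6, 10.3, 15.5 and 14.97 CPM in *Smg6*-iKO, 11.7, 10.99, 6.65 and 13.8 CPM in Ctr + 4-OHT and 9.43, 10.96 and 13.47 CPM in Ctr. The *Smg6*-iKO library of embryo SMH_128 lay within the range of the controls, and the other 3 lay above all of them. The log2 fold change was 0.40 with a standard error of 0.21 (adjusted p = 0.364, edgeR) against Ctr + 4-OHT and 0.32 with a standard error of 0.16 (adjusted p = 0.216, edgeR) against Ctr. With the embryo as a block the value against Ctr was 0.27 (adjusted p = 0.044 from edgeR). It also passed without the filter on low counts (adjusted p = 0.032 from edgeR) and without *Smg6*-iKO embryo SMH_128 (adjusted p = 0.039 from edgeR).

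*Dlk1*, the paternally expressed gene of the domain, encodes a transmembrane relative of the Notch ligands (ENSMUSG00000040856, chr12:109452823-109463336). It was low, with between 60 and 170 counts per library. Its level was 4.87, 3.12, 6.04 and 4.90 CPM in *Smg6*-iKO, 2.23, 2.72, 2.55 and 4.28 CPM in Ctr + 4-OHT and 3.78, 5.43 and 3.83 CPM in Ctr. All groups overlapped. The log2 fold change was 0.70 with a standard error of 0.24 (adjusted p = 0.184, edgeR) against Ctr + 4-OHT, 0.12 with a standard error of 0.21 (adjusted p = 0.765, edgeR) against Ctr, and -0.56 with a standard error of 0.24 (adjusted p = 0.58, edgeR) between Ctr + 4-OHT and Ctr. The 2 controls were thus further apart for *Dlk1* than *Smg6*-iKO and Ctr were, and no difference passed the test.

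To ask whether the maternal transcripts moved in proportion, their counts were divided by each other within each library. The log2 ratio of *Rian* to *Meg3* (mean ± SD) was -1.25 ± 0.061 over the 4 *Smg6*-iKO libraries, -1.18 ± 0.21 over the 4 Ctr + 4-OHT libraries and -1.20 ± 0.046 over the 3 Ctr libraries. It differed by -0.068 against Ctr + 4-OHT (two-sided exact permutation test, p = 0.543) and by -0.052 against Ctr (two-sided exact permutation test, p = 0.371), and the libraries overlapped in both comparisons. The ratio of *Mirg* to *Meg3* was -4.83 ± 0.22, -4.92 ± 0.38 and -4.74 ± 0.30 in the same order, and its differences changed sign when single libraries were left out. Within the embryos SMH_128, SMH_132 and SMH_133, it was lower in *Smg6*-iKO than in Ctr with differences of -0.099, -0.030 and -0.21. The ratio of *Meg3* to *Dlk1* was 6.42 ± 0.34, 6.79 ± 0.48 and 6.12 ± 0.36, with overlapping libraries in all comparisons, and within these embryos it was higher in *Smg6*-iKO by 0.51, 0.38 and 0.0090. For *Rian* to *Meg3* the differences within embryos were -0.035, -0.18 and 0.00051. Of 18 tests over 6 ratios and 3 comparisons, 0 passed after Benjamini-Hochberg adjustment of the exact permutation p-values (smallest adjusted p = 0.514), and 1 had an unadjusted p under 0.05.

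*Snhg14*, the snoRNA host of the *Snrpn* domain, was the other member wholly above both controls. The file's *Snhg14* (ENSMUSG00000100826) spans chr7:59307924-59975759 on the minus strand, and 3.91% of this span, in 65 blocks, is exonic. Its level was 133.1, 132.8, 145 and 139 CPM in *Smg6*-iKO, 131.2, 109, 84.9 and 124.9 CPM in Ctr + 4-OHT and 104, 122 and 102 CPM in Ctr. The lowest *Smg6*-iKO library (132.8 CPM) was just above the highest control library (131.2 CPM). Against Ctr, *Snhg14* rose by a log2 fold change of 0.33 (standard error 0.069, 1.26-fold, adjusted p = 0.019 from edgeR). The call was lost without Ctr embryo SMH_128 (adjusted p = 0.072), Ctr embryo SMH_133 (adjusted p = 0.063) or *Smg6*-iKO embryo SMH_133 (adjusted p = 0.056), all from edgeR, and in one fit of all libraries (adjusted p = 0.137 from edgeR). These fits do not use the pairing of embryos, and the fit with the embryo as a block gave 0.35 (adjusted p = 9.5e-05, edgeR). Against Ctr + 4-OHT the log2 fold change was 0.30 with a standard error of 0.11 (adjusted p = 0.221, edgeR), with adjusted p-values between 0.164 and 0.433 over the alternatives.

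*Snrpn* encodes a protein of the spliceosomal small nuclear ribonucleoproteins in neurons (ENSMUSG00000102252, chr7:59982495-60140219). Its level was 80.8, 80.6, 74.0 and 72.8 CPM in *Smg6*-iKO, 80.4, 76.2, 62.8 and 77.7 CPM in Ctr + 4-OHT and 72.8, 64.6 and 68.0 CPM in Ctr. The groups overlapped, although only slightly between *Smg6*-iKO and Ctr. The log2 fold change was 0.064 with a standard error of 0.079 (adjusted p = 0.739, edgeR) against Ctr + 4-OHT and 0.17 with a standard error of 0.065 (adjusted p = 0.122, edgeR) against Ctr, where the fit with the embryo as a block gave 0.15 (adjusted p = 0.044 from edgeR). *Gm38393*, which shares exonic bases with *Snrpn*, had a log2 fold change of 0.15 (adjusted p = 0.331 from edgeR) against Ctr + 4-OHT.

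RefSeq gives *Snhg14* and *Snrpn* the same upstream start, at chr7:60450128-60450427 on the minus strand (GRCm38.p6), well before the 5′ end of either model in the count tables. RefSeq gives *Snrpn* other starts too. The window at chr7:60140176-60140475 holds the 5′ end of the *Snrpn* model counted here, and that at chr7:60005150-60005449 holds 7 CpG. The shared upstream window is shown because RefSeq gives both members a start there. The longest run common to it and to the windows of 2 further upstream *Snrpn* starts is 49 bases, from position 243 to 291, and stands in capitals:
Snhg14 and Snrpn promoter: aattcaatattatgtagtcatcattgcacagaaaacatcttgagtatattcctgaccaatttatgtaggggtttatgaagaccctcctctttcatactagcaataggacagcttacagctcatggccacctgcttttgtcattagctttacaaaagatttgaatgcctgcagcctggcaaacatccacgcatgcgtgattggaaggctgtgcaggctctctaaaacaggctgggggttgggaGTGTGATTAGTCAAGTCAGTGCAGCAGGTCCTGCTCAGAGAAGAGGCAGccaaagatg
Of the 32851 promoters of this length, 0.0122% hold the run on either strand, all of them of *Snhg14* or *Snrpn*. The window holds 2 CpG.

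The log2 ratio of *Snhg14* to *Snrpn* (mean ± SD) was 0.84 ± 0.13 over the 4 *Smg6*-iKO libraries, 0.59 ± 0.13 over the 4 Ctr + 4-OHT libraries and 0.67 ± 0.21 over the 3 Ctr libraries. Every *Smg6*-iKO library was above every Ctr + 4-OHT library, by 0.25 on average (two-sided exact permutation test, p = 0.0286, adjusted p = 0.514 over the 18 ratio tests). Against Ctr the difference was 0.16, and the libraries overlapped (two-sided exact permutation test, p = 0.257). Within the embryos SMH_128, SMH_132 and SMH_133 the ratio was higher in *Smg6*-iKO by 0.20, 0.052 and 0.35. The ratio tests do not use this pairing, and 3 pairs are too few for an exact paired test to pass.

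Rows for the small RNAs themselves hold few reads. Within *Snhg14* the annotation has 208 snoRNA genes, of which 107 had 0 counts in all 11 libraries, and the rest summed to 2778 counts against 38654 counts for the exons of *Snhg14*. This sum, chosen after the counts were seen, was 10.7, 8.21, 11.03 and 9.90 CPM in *Smg6*-iKO, 9.42, 9.54, 6.07 and 10.4 CPM in Ctr + 4-OHT and 6.52, 7.03 and 6.62 CPM in Ctr. *Smg6*-iKO lay wholly above Ctr, by a ratio of means of 1.48 (two-sided exact permutation test, p = 0.0571), and overlapped Ctr + 4-OHT (ratio 1.13, two-sided exact permutation test, p = 0.429). Between Ctr + 4-OHT and Ctr the ratio of means was 1.32, with overlapping libraries (two-sided exact permutation test, p = 0.143). The 13 snoRNA genes within *Rian* summed to 438 counts, with a ratio of means of 1.30 against Ctr + 4-OHT (two-sided exact permutation test, p = 0.0857) and 1.14 against Ctr (two-sided exact permutation test, p = 0.143). In embryos SMH_128, SMH_132 and SMH_133 the *Rian* sum was 1.61, 1.51 and 1.33 CPM in *Smg6*-iKO. It was 1.49, 1.28 and 1.30 CPM in Ctr, a pairing that these tests do not use. Reads in a snoRNA gene can come from the snoRNA or from the unspliced host, and these libraries do not separate them.

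Of the rows named Mir or Snord in the members' loci, *Mir1188*, *Mir453*, *Mir3070b* and *Snord116l12* reached 10 counts in any library. *Mir453*, in an intron of *Mirg*, had 43 counts over the 4 *Smg6*-iKO libraries, 20 counts over the 4 Ctr + 4-OHT libraries and 18 counts over the 3 Ctr libraries. *Snord116l12* had 29, 23 and 15 counts in the same groups, *Mir3070b* had 32, 25 and 21 counts, and *Mir1188* had 20, 13 and 19 counts. The row of *Mir675* in *H19* had 0 counts in all libraries.

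*H19*, the maternally expressed non-coding RNA of the *H19*-*Igf2* domain (ENSMUSG00000000031, chr7:142575529-142578143, minus strand), varied widely between embryos (coefficient of variation 29.0% in Ctr + 4-OHT). It lay at 319, 281, 280 and 196 CPM in *Smg6*-iKO, at 192, 319, 267 and 393 CPM in Ctr + 4-OHT and at 259, 256 and 229 CPM in Ctr. The Ctr + 4-OHT libraries spanned the range of both other groups. The log2 fold change was -0.11 with a standard error of 0.21 (adjusted p = 0.832, edgeR) against Ctr + 4-OHT and 0.12 with a standard error of 0.13 (adjusted p = 0.623, edgeR) against Ctr, and the former turned positive without Ctr + 4-OHT embryo SMH_131 (0.057) or *Smg6*-iKO embryo SMH_133 (0.0053).

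*Igf2*, the paternally expressed growth factor next to *H19* (ENSMUSG00000048583, chr7:142650766-142666816), had between 3 and 17 counts per library and was not tested in the main fits. It had 17, 8, 3 and 4 counts in *Smg6*-iKO, 6, 5, 6 and 6 counts in Ctr + 4-OHT and 4, 5 and 6 counts in Ctr. The library with 17 counts, *Smg6*-iKO embryo SMH_127, also had the highest summed level of the 8 mesenchyme markers (1558 CPM, against 287 to 919 CPM in the other 10 libraries). Over the 11 libraries Pearson's r between log2 *Igf2* and the log2 mesenchyme sum was 0.81, a description over points that share depth and culture. For *H19* and the same sum it was 0.18. Whether cells other than NPCs gave the *Igf2* counts was not tested.

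*Kcnq1ot1*, the paternally expressed antisense RNA (ENSMUSG00000101609, chr7:143203458-143296549), is a single unspliced block of 93092 bases. Its level was 173, 148, 189 and 159 CPM in *Smg6*-iKO, 161, 165, 164 and 186 CPM in Ctr + 4-OHT and 149, 192 and 149 CPM in Ctr. The groups overlapped throughout, and the log2 fold change was -0.0060 (standard error 0.083) against Ctr + 4-OHT and 0.032 (standard error 0.11) against Ctr. An approximate 95% interval of the change against Ctr + 4-OHT runs from 0.890-fold to 1.11-fold. Its sign depended on the normalization and on single libraries.

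*Peg3*, a zinc finger protein gene expressed from the paternal copy in brain and placenta (ENSMUSG00000002265, chr7:6703892-6730431), varied little between embryos (coefficient of variation 5.21% to 7.66% per group). Its level was 329, 302, 287 and 277 CPM in *Smg6*-iKO, 315, 283, 269 and 269 CPM in Ctr + 4-OHT and 292, 300.7 and 271 CPM in Ctr. The groups overlapped, and the log2 fold change was 0.086 with a standard error of 0.072 (adjusted p = 0.599, edgeR) against Ctr + 4-OHT and 0.053 with a standard error of 0.069 (adjusted p = 0.672, edgeR) against Ctr. An approximate 95% interval of the former runs from 0.962-fold to 1.17-fold.

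Counted over the 9 tested members, 3 rose and 0 fell in *Smg6*-iKO against Ctr (*Meg3*, *Rian* and *Snhg14*), where 9.25% of the 17974 genes tested passed in either direction and 4.27% rose. With the embryo as a block, *Mirg* and *Snrpn* passed as well, so that 5 members rose and 0 fell, where 10.3% of all genes rose in that fit. Against Ctr + 4-OHT, 0 of 9 members passed in edgeR, where 1.17% of the 17558 genes tested passed and 0.757% rose. Of the 9, 4 (*Meg3*, *Rian*, *Dlk1* and *Snhg14*) had an unadjusted p under 0.05, as did 16.7% of the genes tested. DESeq2 called 1, *Meg3*, where it called 6.06% of the 14401 genes to which it gave an adjusted p. In Ctr + 4-OHT against Ctr, 0 of 9 passed, where 0.221% of the 17665 genes tested did. *Dlk1* had the 1 unadjusted p under 0.05 there in edgeR, as did 8.28% of genes, and DESeq2 called 0 members and 0.825% of the 20487 genes with an adjusted p. *Smg6*-iKO lay wholly above Ctr + 4-OHT for *Meg3* and *Snhg14*, as it did for 5.03% of all genes tested, and wholly above Ctr for *Meg3*, *Rian* and *Snhg14*, as for 11.4% of genes. The median log2 fold change of the 9 was 0.25 against Ctr + 4-OHT and 0.17 against Ctr, with medians of 0.012 and 0.0055 over all genes tested. Both comparisons use the same *Smg6*-iKO libraries.

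**Figure D2:**
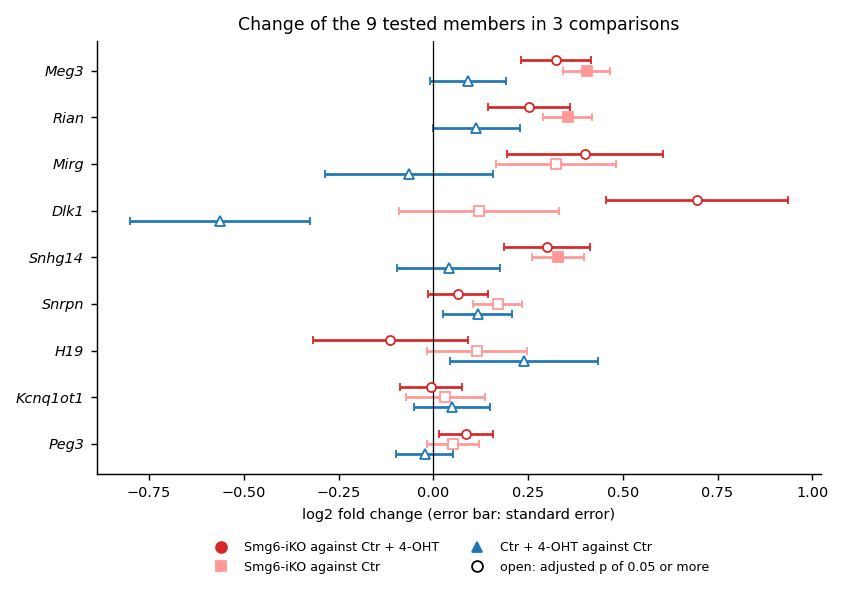
Log2 fold change (horizontal axis, with its standard error) of the 9 tested members in the 3 comparisons, with filled symbols for an adjusted p under 0.05 in edgeR. Filled symbols occur for *Meg3* (0.40), *Rian* (0.35) and *Snhg14* (0.33) in *Smg6*-iKO against Ctr and nowhere else.

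The 3 embryos with both cultures allow the same question within an animal. *Meg3* was higher in *Smg6*-iKO by 0.23, 0.53 and 0.36 on the log2 CPM scale in embryos SMH_128, SMH_132 and SMH_133. *Rian* was higher by 0.20, 0.34 and 0.36 and *Snhg14* by 0.35, 0.25 and 0.45. *Mirg* and *Snrpn* were also higher in 3 of 3 embryos, by 0.13 to 0.50 and by 0.099 to 0.19. *Dlk1*, *H19* and *Peg3* were higher in 2 of 3 embryos, and *Kcnq1ot1* and *Igf2* in 1 of 3.

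**Figure D3:**
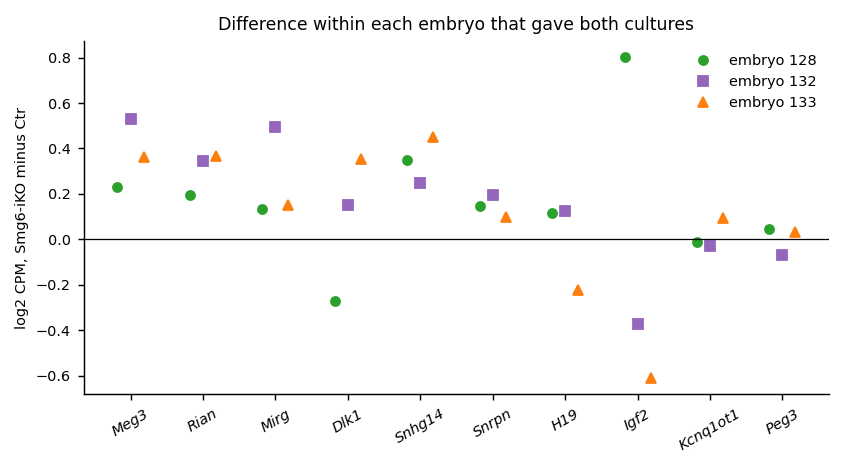
Difference in log2 CPM between the *Smg6*-iKO and the Ctr culture of the same embryo (vertical axis) for the 10 members, with 1 symbol for each of the embryos SMH_128, SMH_132 and SMH_133. All 3 symbols lie above 0 for *Meg3*, *Rian*, *Mirg*, *Snhg14* and *Snrpn*.

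Expressed per kilobase of exon, so that genes can be set beside each other, *H19* was the most abundant member in Ctr (101 CPM per kb), followed by *Snrpn* (31.7), *Peg3* (21.6), *Meg3* (16.6), *Rian* (7.14), *Snhg14* (4.20), *Kcnq1ot1* (1.75), *Mirg* (1.55), *Dlk1* (0.768) and *Igf2* (0.0308 CPM per kb). In Ctr, neighbours in this order did not overlap between libraries except *Kcnq1ot1* and *Mirg*. In Ctr + 4-OHT and in *Smg6*-iKO, *Peg3* and *Meg3* overlapped too. *Meg3* rose to a mean level of 21.9 CPM per kb in *Smg6*-iKO, next to 22.4 CPM per kb for *Peg3*. Within the maternal series the level was lower with each step away from the *Meg3* start, with *Rian* at 7.14 and *Mirg* at 1.55 CPM per kb in Ctr. *H19* stood above 98.7% and *Meg3* above 84.3% of the 18123 genes kept, and *Igf2* above 0.0773%.

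Markers of neurons and of progenitors moved with several members. The summed level of the 7 neuron markers was between 1790 and 1976 CPM in Ctr, between 1644 and 2676 CPM in Ctr + 4-OHT and between 2094 and 2416 CPM in *Smg6*-iKO, so that *Smg6*-iKO lay wholly above Ctr, while 0 of the 7 markers passed the test in any comparison by edgeR (in *Smg6*-iKO against Ctr the adjusted p of *Tubb3* was 0.053). The sum of the 10 progenitor markers was between 6403 and 6924 CPM in Ctr, between 5716 and 7065 CPM in Ctr + 4-OHT and between 5439 and 6301 CPM in *Smg6*-iKO, so that *Smg6*-iKO lay wholly below Ctr. Of these markers, 5 fell against Ctr and 0 against Ctr + 4-OHT in edgeR. Over the 11 libraries Pearson's r with the log2 neuron sum was 0.85 for *Rian*, 0.85 for *Snrpn*, 0.69 for *Snhg14*, 0.65 for *Mirg* and 0.50 for *Meg3*, and it was -0.012 for *H19* and 0.041 for *Kcnq1ot1*. After removal of the group means, r was 0.94 for *Rian*, 0.81 for *Snrpn*, 0.74 for *Snhg14*, 0.71 for *Mirg* and 0.43 for *Meg3*. With the log2 progenitor sum r was negative, at -0.89 for *Rian*, -0.83 for *Mirg*, -0.80 for *Snhg14*, -0.79 for *Meg3* and -0.67 for *Snrpn*. After removal of the group means these were -0.81 for *Rian*, -0.94 for *Mirg*, -0.70 for *Snhg14*, -0.58 for *Meg3* and -0.48 for *Snrpn*. For *Meg3*, r was thus larger in size with the progenitor sum than with the neuron sum, a difference that was not tested. With the sum of 6 oligodendrocyte lineage markers, which was between 603 and 918 CPM in all libraries, r after removal of the group means was -0.73 for *Meg3*, -0.92 for *Rian* and -0.79 for *Snrpn*. It was -0.75 for *Peg3*, which passed no test between the groups. *Rian* and *Snrpn* also followed the mesenchyme sum (r of 0.65 and 0.64, and of 0.65 and 0.59 after removal of the group means), and *Snrpn* and *Rian* the astrocyte sum (0.74 and 0.64 after removal of the group means). These are descriptions over 11 libraries that share depth and normalization, and the part of the cell type shares in the differences of *Rian*, *Snhg14* and *Meg3* was not tested.

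**Figure D4:**
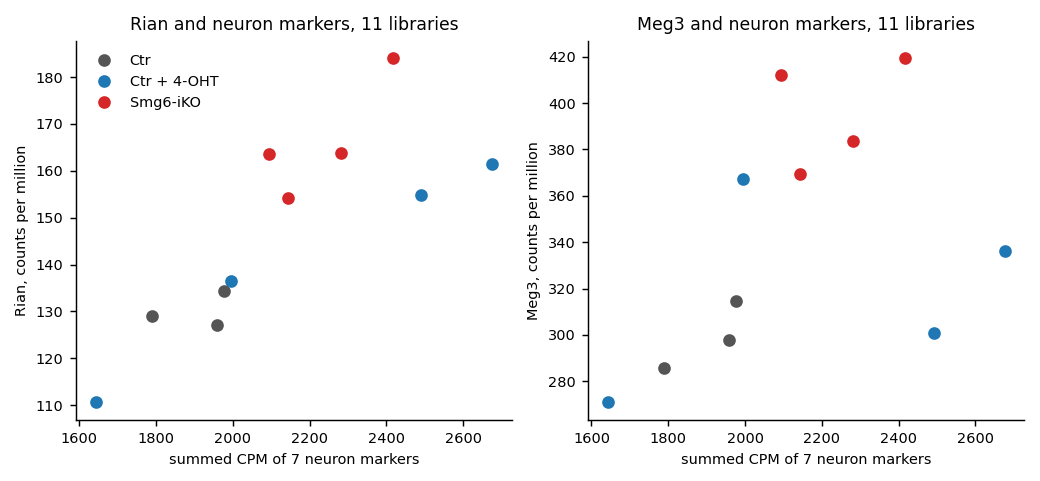
Level of *Rian* (left) and *Meg3* (right) in CPM (vertical axes) against the summed CPM of 7 neuron markers (horizontal axes) in the 11 libraries, coloured by group. *Rian* follows the neuron sum within the groups, with r of 0.94 after removal of the group means. For *Meg3* this r was 0.43, and it was -0.58 with the progenitor sum, which is not drawn.

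The genes whose log2 CPM followed *Meg3* most closely over the 11 libraries, among 18122 others, were *Trank1* (Pearson's r 0.98), *Shisal1* (0.95), *Trpc5* (0.95), *Lins1* (0.94) and *Kcnc2* (0.94). *Trpc5* encodes a cation channel and *Kcnc2* a potassium channel of neurons. They were picked on the same libraries in which *Meg3* was higher in *Smg6*-iKO, so no test between the groups is given for them. *Rian* ranked at place 168 (r 0.83), *Snhg14* at place 635 (r 0.73) and *Kcnq1ot1* at place 9019 (r 0.026).

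Among 60 other imprinted genes, 52 could be tested against Ctr, of which 3 rose and 2 fell in edgeR, a share near the 9.25% of all genes tested. The same list had a median log2 fold change of 0.033 against Ctr. *Magel2*, a melanoma antigen family gene in the same imprinted domain as *Snrpn*, lay at 10.3, 10.2, 9.74 and 11.5 CPM in *Smg6*-iKO, at 6.85, 7.05, 6.53 and 5.65 CPM in Ctr + 4-OHT and at 7.07, 7.58 and 8.95 CPM in Ctr. All *Smg6*-iKO libraries were above all control libraries. *Magel2* was the 1 other imprinted gene of 51 tested that passed against Ctr + 4-OHT, where 1.17% of all genes tested passed. Its log2 fold change there was 0.69 (standard error 0.10, 1.62-fold, adjusted p = 0.011 from edgeR). Without *Smg6*-iKO embryo SMH_133 this adjusted p was 0.051. Against Ctr its log2 fold change was 0.41 (adjusted p = 0.041 from edgeR), a call that held in 2 of 7 fits with a library left out. *Magel2* was also wholly lower in Ctr + 4-OHT than in Ctr (log2 fold change -0.27, adjusted p = 0.636, edgeR).

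*Zim1*, a zinc finger gene beside *Peg3*, rose by 0.44 on the log2 scale against Ctr (adjusted p = 0.041 from edgeR), a call that held in 1 of 7 fits with a library left out (largest adjusted p = 0.125). It was not called against Ctr + 4-OHT, where the log2 fold change was 0.34 (adjusted p = 0.267, edgeR). *Cdkn1c*, a cyclin-dependent kinase inhibitor in the *Kcnq1ot1* domain, lay at 59.4, 72.8, 80.1 and 60.3 CPM in *Smg6*-iKO, at 72.2, 124, 129 and 65.2 CPM in Ctr + 4-OHT and at 96.2, 106 and 97.1 CPM in Ctr. The Ctr + 4-OHT libraries fell into a low and a high pair. The low pair, embryos SMH_125 and SMH_131, also had higher sums of the mesenchyme markers (749 and 919 CPM, against 370 and 321 CPM in SMH_126 and SMH_129) and of the neuron markers (2676 and 2491 CPM, against 1995 and 1644 CPM), and the part of these cell types in the split was not tested. Against Ctr, *Cdkn1c* fell, with a log2 fold change of -0.55 with a standard error of 0.10 (adjusted p = 0.0099, edgeR), a call that held without each library in turn, and against Ctr + 4-OHT the log2 fold change was -0.51 with a standard error of 0.22 (adjusted p = 0.27, edgeR). *Commd1* fell by 0.30 and *Blcap* rose by 0.22 on the log2 scale against Ctr (adjusted p = 0.035 and 0.034 from edgeR), and each call held in 1 of 7 fits with a library left out (largest adjusted p = 0.106 and 0.095). With the embryo as a block 9 of these genes rose and 8 fell against Ctr, where 21.4% of all genes tested passed in either direction and 10.3% rose.

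Hosts of snoRNAs outside imprinted loci gave the largest contrast with the members. Many of these hosts are short spliced RNAs that reach the ribosome and are known NMD substrates, with *Gas5* the best-known example. Of 19 listed, 17 were found in the tables and tested, and 11 rose and 0 fell in *Smg6*-iKO against either control (edgeR), where 0.757% of all genes rose against Ctr + 4-OHT and 4.27% against Ctr. The list was chosen with earlier results of these data known, so its share of risers is a description and not a test. Of the calls against Ctr + 4-OHT, that of *Snhg16* held in 1 of 8 fits with a library left out (largest adjusted p = 0.119, edgeR). Their median log2 fold change was 1.11 against Ctr + 4-OHT and 1.03 against Ctr. *Gas5* lay at 683, 786, 704 and 681 CPM in *Smg6*-iKO, at 275, 338, 324 and 255 CPM in Ctr + 4-OHT and at 323, 335 and 342 CPM in Ctr. *Zfas1* rose most, by 2.33 on the log2 scale against Ctr + 4-OHT and by 2.19 against Ctr, and *Epb41l4aos* rose by 2.03 and 1.80. Outside this list, *Snhg11*, a host by name counted below with the nuclear lncRNAs, rose by 0.32 against Ctr (adjusted p = 0.032, edgeR). This was less than *Meg3*, *Rian* and *Snhg14* rose. The 11 of the list that rose against Ctr did so by 0.47 to 2.19 on the log2 scale. These were all above the value of 0.40 for *Meg3*, 0.35 for *Rian* and 0.33 for *Snhg14*. The other 6, of which *Snhg3* had a log2 fold change of -0.18, lay between -0.18 and 0.33 against Ctr. With the embryo as a block, *Snhg15* (log2 fold change 0.40, adjusted p = 0.00020, edgeR) and *Snhg17* (log2 fold change 0.22, adjusted p = 0.0076, edgeR) of these 6 passed too, so that 13 of 17 hosts rose.

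**Figure D5:**
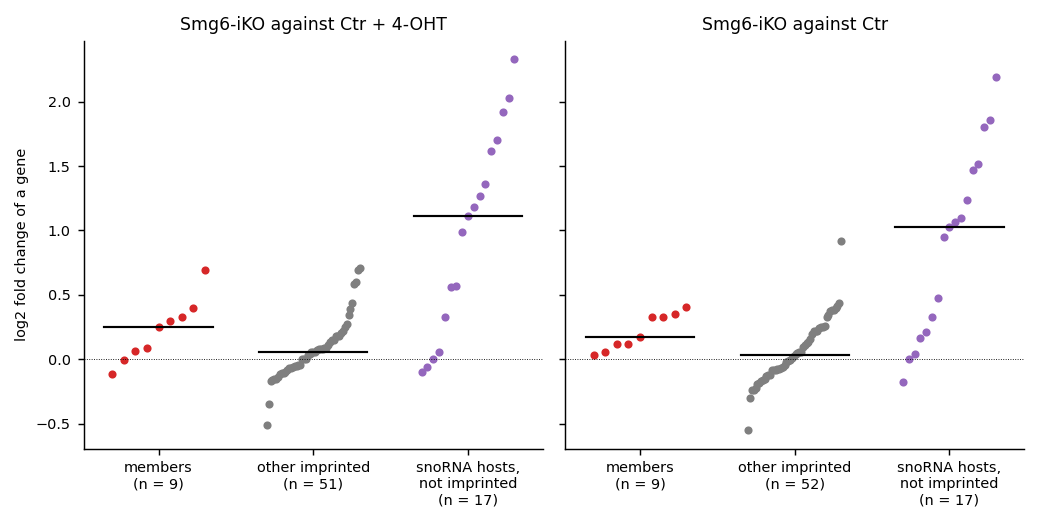
Log2 fold change (vertical axis) of each tested member, of each tested gene among the other imprinted genes and of each tested snoRNA host outside imprinted loci, for *Smg6*-iKO against Ctr + 4-OHT (left) and against Ctr (right). Points are genes in rising order and the bar is their median, which is 0.25, 0.054 and 1.11 on the left and 0.17, 0.033 and 1.03 on the right.

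Of 17 nuclear lncRNAs and microRNA hosts outside imprinted loci, 15 were tested, and 0 passed against Ctr + 4-OHT by edgeR. Against Ctr, where 9.25% of all genes passed, 3 of the 15 did: *Pvt1* rose by 0.56 and *Snhg11* by 0.32 on the log2 scale and *Dleu2*, the host of a microRNA cluster, fell by 0.37. With a library left out, the call of *Pvt1* held in 7 of 7 fits, that of *Dleu2* in 6 of 7 and that of *Snhg11* in 2 of 7. With the embryo as a block, where 21.4% of all genes tested passed in either direction, 7 of the 15 passed: *Neat1* and *Mir124a-1hg* rose and *Mir9-3hg* and *Mir99ahg* fell as well. Of 22 genes that set or keep imprints, 18 were tested, of which 0 passed against Ctr + 4-OHT and 3 fell against Ctr (edgeR), where 1.17% and 9.25% of all genes passed in either direction. These were *Uhrf1*, which guides maintenance methylation, by 0.33, the chromatin remodeller *Hells* by 0.29 and the 5-methylcytosine dioxygenase *Tet2* by 0.27. With a library left out, the call of *Uhrf1* held in 7 of 7 fits, that of *Hells* in 1 of 7 and that of *Tet2* in 4 of 7. *Tet2* was also wholly lower in Ctr + 4-OHT than in Ctr (log2 fold change -0.22, adjusted p = 0.432 from edgeR), and its log2 fold change between *Smg6*-iKO and Ctr + 4-OHT was -0.045. The fit with the embryo block called 6 of the 18 lower, *Dnmt1*, *Tet1* and *Ehmt2* being added. Of 26 processing factors of microRNAs and snoRNAs, 1 passed against Ctr, *Nhp2*, a protein of H/ACA box snoRNA particles, which fell by 0.46, and 0 passed against Ctr + 4-OHT. *Nhp2* was also wholly lower in Ctr + 4-OHT than in Ctr (log2 fold change -0.35, adjusted p = 0.351 from edgeR), and differed by -0.11 between *Smg6*-iKO and Ctr + 4-OHT. In the block fit against Ctr, 5 of the 26 processing factors passed, since *Nop56* and *Ago4* rose and *Dkc1* and *Nop10* fell as well. In Ctr + 4-OHT against Ctr, 0 genes of these lists passed by edgeR.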

How the data were processed

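Total RNA of 11 NPC cultures was sequenced as single reads from stranded, ribosome-depleted libraries. Per the methods and labels, the authors extracted reads with bcl2fastq 1.8.4, mapped them to GRCm38 with STAR 2.5.4b and counted them with featureCounts 1.5.0 on Ensembl genes, leaving out reads with several positions or several genes. The deposited values are raw counts per gene. Groups came from the sample labels. The members, the gene lists and the tests were chosen with earlier results of these data known.

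Symbols came from GENCODE M21, with 53620 of 53801 identifiers paired. The libraries of both groups of a comparison were fitted in R 4.3.3 with edgeR 4.0.16 (filterByExpr, TMM, quasi-likelihood test, Benjamini-Hochberg adjustment, adjusted p under 0.05), which was tested on simulated data. Log2 ratios took a pseudocount of 0.5. P-values measure the spread between libraries of a group, each from its own embryo. Against Ctr, only the fit with the embryo as a block uses the pairing of libraries, and all other tests leave it out. Same-numbered Ctr and *Smg6*-iKO libraries came from one embryo and are paired: their deviations from the group means correlated at 0.33, 0.40 and 0.43 over genes. No 2 libraries of a group agreed within sampling noise. Intervals and SDs cover counting error and embryo differences together. Named beside the members were list genes that passed a test, the largest changes among snoRNA hosts, and the 5 genes most like *Meg3*. Alternatives were other normalizations and filters, one fit of all libraries, DESeq2 1.42.0, the embryo as a block, and each library left out. Figures were drawn with matplotlib 3.10.9.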

Additional observations from a re-analysis of the deposited data

Results flagged for a closer look

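In groups of 4, a library was looked at again where its gap to the nearest other library made up most of the range of the group, by Dixon's 95% limit. Of 32 groups of member levels and ratios, 3 met this, and chance gives about 1 in 20 such groups. *Mirg* in *Smg6*-iKO embryo SMH_128 lay at 10.3 CPM, below 14.97 to 15.6 CPM in the other 3 libraries. The log2 ratio of *Mirg* to *Meg3* in the same library was -5.16, below -4.75 to -4.68 in the others. *Kcnq1ot1* in Ctr + 4-OHT embryo SMH_131 lay at 186 CPM, above 161 to 165 CPM in the other 3.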

How the results depend on the processing

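*Meg3* stayed above both controls, and *Rian*, *Mirg*, *Snhg14* and *Peg3* kept their direction against both, in each of 14 alternatives per comparison. Against Ctr + 4-OHT, the members that passed numbered 1 with DESeq2, and against Ctr 1 in one fit of all libraries and 5 with the embryo as a block. Without the filter, *Mirg* passed against Ctr as well. With a library left out, *Meg3* passed against Ctr in 7 of 7 fits, *Rian* in 6 of 7, *Snhg14* in 4 of 7 and *Mirg* in 1 of 7. Genes that passed against Ctr + 4-OHT numbered 418 without the filter, 484 in one fit and 873 with DESeq2, in place of 206, and 66 to 174 with a library left out. Against Ctr they numbered 2714 without the filter, 796 in one fit and 3854 with the block, in place of 1663, and 570 to 2524 with a library left out. In Ctr + 4-OHT against Ctr they numbered 198 without the filter, 60 in one fit and 169 with DESeq2, in place of 39, and 5 to 54 with a library left out. Other imprinted genes that passed numbered 2 in one fit and with DESeq2 against Ctr + 4-OHT (0 to 1 with a library left out), and against Ctr 11 without the filter, 1 in one fit, 9 with DESeq2 and 17 with the paired block (1 to 9 with a library left out).

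Signs that turned belonged to small values that did not pass. Against Ctr + 4-OHT, *Kcnq1ot1* was 0.012 with upper-quartile normalization and -0.077 to 0.044 with a library left out, *Snrpn* -0.014 to 0.096 and *H19* -0.28 to 0.057. Against Ctr, leaving out a library gave -0.013 to 0.31 for *Dlk1* and -0.033 to 0.16 for *Kcnq1ot1*. In Ctr + 4-OHT against Ctr it gave -0.20 to 0.11 for *Mirg*, -0.034 to 0.15 for *Snhg14*, -0.015 to 0.18 for *Kcnq1ot1* and -0.069 to 0.0098 for *Peg3*. For ratios it gave, against Ctr + 4-OHT, -0.15 to 0.0078 for *Rian* to *Meg3*, -0.048 to 0.25 for *Mirg* to *Meg3* and -0.47 to 0.14 for *H19* to *Igf2*. Against Ctr it gave -0.25 to 0.050 for *Mirg* to *Meg3*, -0.51 to 0.10 for *H19* to *Igf2* and -0.094 to 0.078 for *Kcnq1ot1* to *Peg3*. Between the controls it gave -0.059 to 0.097 for *Rian* to *Meg3*, -0.16 to 0.035 for *Snhg14* to *Snrpn* and -0.29 to 0.19 for *H19* to *Igf2*, the last also 0.0039 with a pseudocount of 2. The cause of these changes was not tested. Low counts limit the small RNA rows and *Igf2*, which had at most 17 counts. Reads in 3596 of the 5723 exonic bases of *Igf2*, shared with *Gm49394*, were counted for neither gene.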
